A study of Mus musculus with 375 samples.

Results

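The genes described here are the enzymes of cholesterol synthesis and the proteins that control them through SREBP2, in single sorted intestinal stem cells of mice on a control or a high-fat diet. The members were chosen by name from the known pathway, 20 enzymes and 7 genes of control and transport, with earlier results of these data known. All 27 were found among the 23416 gene symbols that occur once in the table. The cells were sorted by flow cytometry as Lgr5+ cells from the small intestine, where the mice had eaten a control diet or one high in fat (HFD), and each was sequenced with Smart-seq2, a plate-based method that copies full-length transcripts of 1 cell. There were 2 sets of cells per diet, control 1, control 2, HFD 1 and HFD 2. The labels give no strain, allele, age, sex or length of feeding, and do not say whether a set is 1 mouse or several. The set was taken as the replicate, so p-values measure the spread between these sets, which may be technical. Of 375 deposited cells, 367 had at least 2000 genes above 0 TPM, 93, 91, 91 and 92 in the order given. TPM (the share of a cell's transcripts that a gene takes, scaled to a fixed total) is a level per transcript length and per total, so levels of different genes can be compared, but it keeps no read depth.

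Cholesterol is built from acetyl-CoA by way of mevalonate, farnesyl diphosphate, squalene and lanosterol, and the mevalonate part also feeds protein prenylation, dolichol and ubiquinone. SREBP2, encoded by Srebf2, is a membrane-bound transcription factor. When sterols are scarce, SCAP escorts it to the Golgi, where the proteases of Mbtps1 and Mbtps2 release its active part, and the INSIG proteins hold SCAP back when sterols are plentiful. Dividing cells need sterols for new membranes, and crypt base stem cells, marked by Lgr5, divide throughout life.

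The sorted cells had the stem cell markers in every set: each of the 11 stem markers examined had a mean of at least 1 TPM in all 4 sets. Markers of leukocytes summed to 0.575 to 0.881 TPM per set and stromal markers to 0.218 to 1.10 TPM. Absorptive enterocyte markers were higher in the HFD sets, with summed levels of 271 and 409 TPM in control and 807 and 916 TPM in HFD, and none of the 12 was at 0 in any set. Paneth cell markers summed to 102, 57.0, 710 and 213 TPM and goblet cell markers to 504, 75.8, 641 and 548 TPM, in the order control 1, control 2, HFD 1 and HFD 2. The median number of genes per cell was 6893, 6129, 6855 and 6347.5 in the same order, and Rn45s, the precursor of ribosomal RNA, accounted for 39.2%, 24.6%, 26.9% and 18.6% of the summed TPM. Cells were also placed in 3 cell cycle states by scores over 43 S phase genes and 53 G2/M genes. G2/M-high cells were at or above a G2/M score of 3.54, S-high cells were below it with an S score of at least 3.52, and low cells were below both. These states are ranges of a score and not cell types, and 47 of the 367 cells lay within 0.25 of a cut. The share of low cells was 52.7% and 48.4% in control 1 and 2 and 34.1% and 42.4% in HFD 1 and 2, that of S-high cells 20.4% and 19.8% against 33.0% and 28.3%, and that of G2/M-high cells 26.9% and 31.9% against 33.0% and 29.3%.

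SREBP2 binds sterol regulatory elements near the start sites of its targets, usually beside CCAAT boxes and GC boxes. Promoter windows of 250 bases before to 50 bases after the start site were taken from RefSeq (build GRCm38.p6) for 23 members, 29 windows in all. Fdps, Fdft1, Sqle and Stard4 are not included. The element was searched on both strands as TCACNCCAC, the CCAAT box as CCAAT and the GC box as GGGCGG. The element was found in full in 1 of the 29 member windows, that of Hmgcs1, and in 1.24% of 32851 windows of all genes. With 1 mismatch allowed it was found in 10 of 29 (34.5%), against 24.2% of all windows. A CCAAT box was found in 19 of 29 (65.5%), against 37.4%, and a GC box in 23 of 29 (79.3%), against 35.7%. The 250 bases before the start site are shown for 5 members on which the results turn, 5′ to 3′ on the strand of the gene. Capitals mark matches to the element with at most 1 mismatch and CCAAT boxes, on either strand (ATTGG is the box on the other strand).
Hmgcs1 (chr13:119690101-119690350, plus strand): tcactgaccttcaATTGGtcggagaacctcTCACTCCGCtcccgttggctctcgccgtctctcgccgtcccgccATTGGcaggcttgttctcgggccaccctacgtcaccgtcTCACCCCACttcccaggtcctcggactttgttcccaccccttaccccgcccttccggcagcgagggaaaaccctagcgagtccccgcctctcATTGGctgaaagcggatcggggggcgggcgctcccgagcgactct
Idi1 (chr13:8885356-8885605, plus strand): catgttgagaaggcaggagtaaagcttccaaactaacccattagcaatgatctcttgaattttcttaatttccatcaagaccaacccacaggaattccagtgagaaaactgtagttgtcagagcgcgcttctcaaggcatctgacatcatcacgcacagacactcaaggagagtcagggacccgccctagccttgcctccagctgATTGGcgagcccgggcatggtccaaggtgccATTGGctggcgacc
Sc4mol (chr8:64733579-64733828, minus strand): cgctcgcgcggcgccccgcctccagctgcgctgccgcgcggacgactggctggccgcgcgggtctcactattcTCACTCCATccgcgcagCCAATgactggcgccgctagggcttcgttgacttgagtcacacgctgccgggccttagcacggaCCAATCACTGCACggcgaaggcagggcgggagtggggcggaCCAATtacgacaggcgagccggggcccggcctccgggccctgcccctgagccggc
Srebf2 (chr15:82147019-82147268, plus strand): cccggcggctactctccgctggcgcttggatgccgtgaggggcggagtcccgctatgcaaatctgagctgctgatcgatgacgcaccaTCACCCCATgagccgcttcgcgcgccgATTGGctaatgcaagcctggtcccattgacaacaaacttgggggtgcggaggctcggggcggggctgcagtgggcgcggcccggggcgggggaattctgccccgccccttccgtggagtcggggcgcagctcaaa
Insig1 (chr5:28071162-28071411, plus strand): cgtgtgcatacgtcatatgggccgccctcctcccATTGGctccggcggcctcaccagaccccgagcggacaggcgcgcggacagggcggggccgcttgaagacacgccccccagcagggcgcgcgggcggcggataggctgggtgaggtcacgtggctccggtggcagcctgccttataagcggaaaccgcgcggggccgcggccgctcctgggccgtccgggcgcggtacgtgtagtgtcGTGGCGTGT
The full match of Hmgcs1, TCACCCCAC, begins 137 bases before the start site between a pair of CCAAT boxes. The nearest match of Srebf2, TCACCCCAT, begins 162 bases before the start site, with 1 CCAAT box downstream of it. In Sc4mol 1 match, TCACTGCAC, overlaps the second of 3 CCAAT boxes. Insig1 has a match, GTGGCGTGT, in the last 9 bases, and Idi1 has 2 CCAAT boxes and no match to the element. A match is a run of letters and does not show that a factor binds there.

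Every member was measurable in these cells, at levels that spanned more than an order of magnitude. Over all 367 cells the share of cells with an enzyme at 1 TPM or more ranged from 23.2% for Mvk, mevalonate kinase, and 27.0% for Hsd17b7, a sterol reductase, to 89.6% for Lbr, a sterol reductase and lamin B receptor of the inner nuclear membrane. Fdps, farnesyl diphosphate synthase and the last step shared by the sterol and prenyl branches, had set means of 27.1 and 61.7 TPM in control and 99.1 and 101.5 TPM in HFD. The HFD means of Fdps were the highest of any member in those sets. Lbr had the highest member level in both control sets, at 61.4 and 79.4 TPM. Hsd17b7, with 2.99, 4.17, 3.83 and 5.67 TPM, was the lowest member in control 1 and HFD 1, and Mbtps2 was the lowest in the other sets. Among the control genes Srebf2 itself was seen in 90.7% of cells and Mbtps1 in 85.3%, whereas Mbtps2 was seen in 39.0% and Insig2 in 40.1%. A cell had a median of 10 of the 20 enzymes at 1 TPM or more, from 2 to 20, and the medians of the sets were 10, 8, 12 and 11. Both HFD medians lay above both control medians.

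**Figure D1:**
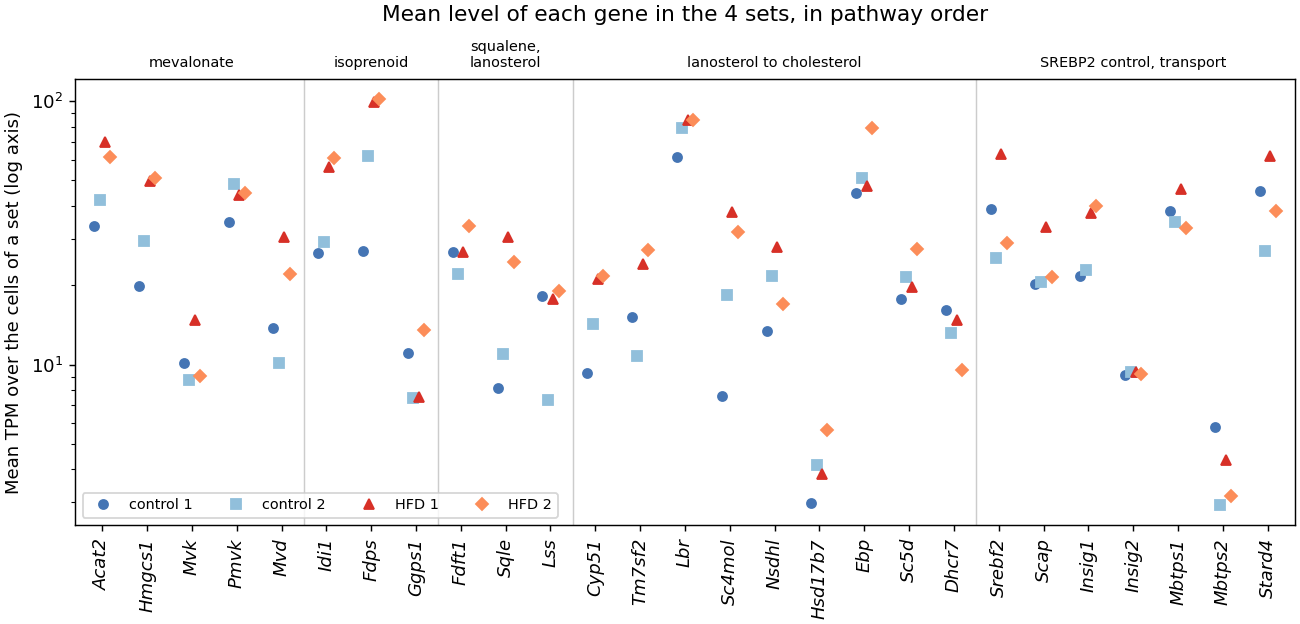
Mean TPM of each of the 27 genes in the 4 sets (log axis), in pathway order; each point is the mean over the passing cells of 1 set. Fdps reaches 99.1 and 101.5 TPM in the HFD sets against 27.1 and 61.7 TPM in the control sets, while Insig2 lies between 9.11 and 9.41 TPM in all 4.

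The diet comparison asks which steps differed between Lgr5+ cells of HFD and control mice. Over all cells, 2 of the 27 members rose in HFD cells and none fell: Sqle, squalene epoxidase, the oxygen-dependent step often counted as a further rate-limiting point, and Sc4mol (Msmo1 in current naming), the oxidase that starts removal of the lanosterol methyl groups. Both had levels in the HFD sets above both control sets. By segment, the median log2 fold change was 0.78 for the 5 mevalonate enzymes, 1.05 for the 3 isoprenoid enzymes, 0.61 for the 3 of squalene and lanosterol and 0.33 for the 9 from lanosterol to cholesterol, and differences between segments were not tested. Set means were compared by limma on log2(mean TPM + 1) with Benjamini-Hochberg adjustment over the 11665 genes whose mean reached 1 TPM, at a threshold of 0.05. Of all these genes 0.369% were called higher in HFD, 43 in number, and 0.137% lower, 16 in number.

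Sqle (chr15:59315077-59331192, plus strand, build GRCm38) had means of 8.13 and 11.0 TPM in control and 30.4 and 24.6 TPM in HFD. The control sets were both low and the HFD sets both high, with no overlap, a log2 fold change of 1.44 (SE 0.30, limma adjusted p = 0.0190). The share of cells with it was 33.3% and 22.0% in control and 52.7% and 40.2% in HFD, with 95% Clopper-Pearson intervals of 23.9 to 43.9%, 14.0 to 31.9%, 42.0 to 63.3% and 30.1 to 51.0%, which cover counting of cells only. In the cells that had it, the median was 24.3 and 32.8 TPM in control and 50.7 and 40.7 TPM in HFD, so both the share of cells and the level per positive cell were higher in HFD.

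Sc4mol (chr8:64718139-64733792, minus strand) had means of 7.61 and 18.4 TPM in control and 38.0 and 31.9 TPM in HFD. The sets did not overlap, and the log2 fold change was 1.47 (SE 0.33, limma adjusted p = 0.0369). The control sets differed from each other, and 1 cell supplied 21.4% of the control 2 sum. The share of cells with Sc4mol was 21.5% and 22.0% in control and 52.7% and 31.5% in HFD. The gene span given here comes from GENCODE and reaches past the RefSeq start site used for the promoter window. Part of that window therefore lies inside the span.

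The remaining enzymes did not pass. Only Fdps and Idi1, described below, came near the threshold. In the mevalonate segment, Acat2, which joins acetyl-CoA units, had 33.6 and 42.3 TPM in control and 69.8 and 61.3 TPM in HFD (log2 fold change 0.78, limma adjusted p = 0.241). Of its 50-base sequence windows 45.9% are shared with other genes, Acat3 and Tcp1, so its values are uncertain. Hmgcs1, HMG-CoA synthase, had 20.0 and 29.5 TPM against 49.9 and 51.0 TPM (1.03, limma adjusted p = 0.104), and Mvd, the decarboxylase that makes isopentenyl diphosphate, had 13.8 and 10.1 TPM against 30.6 and 22.1 TPM (1.07, limma adjusted p = 0.148). All 3 had both HFD sets above both control sets. The kinases between them were different in this respect: Mvk had 10.1 and 8.73 TPM against 14.8 and 9.09 TPM, and Pmvk had 34.9 and 48.6 TPM against 44.1 and 44.9 TPM, and in both the sets overlapped.

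In the isoprenoid segment Idi1, isopentenyl diphosphate isomerase, had 26.5 and 29.2 TPM in control and 56.3 and 61.0 TPM in HFD (1.05, limma adjusted p = 0.0614). Fdps had a log2 fold change of 1.27 (SE 0.30, limma adjusted p = 0.0506), just short of the call. Neither gene overlapped between the diets. Parts of both sequences are shared with other annotated genes, 30.5% of the windows of Idi1 and 11.7% of those of Fdps. Ggps1, which leads from farnesyl to geranylgeranyl diphosphate and so out of the sterol branch, had 11.1 and 7.45 TPM against 7.57 and 13.6 TPM, and its sets overlapped.

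Of the squalene and lanosterol steps other than Sqle, Fdft1 (squalene synthase) had 26.9 and 22.1 TPM in control and 26.8 and 33.4 TPM in HFD, and Lss (lanosterol synthase) had 18.2, 7.33, 17.8 and 19.0 TPM, low in control 2 alone. Both overlapped between the diets. Fdft1 shares 30.7% of its windows, with Ctsb on the opposite strand and Gm6781. In the lanosterol to cholesterol segment, Cyp51, the lanosterol demethylase, had 9.26 and 14.3 TPM against 21.2 and 21.7 TPM (0.84, limma adjusted p = 0.300), and Tm7sf2, a sterol reductase that does the same step as Lbr, had 15.1 and 10.8 TPM against 24.1 and 27.2 TPM (0.95, limma adjusted p = 0.215). Neither passed, and in neither did the sets overlap. Lbr had both HFD means, 85.1 and 84.8 TPM, above the control means, by a log2 fold change of 0.28. Nsdhl, Hsd17b7, Ebp and Sc5d, the dehydrogenase, reductase, isomerase and desaturase of the later steps, had log2 fold changes of 0.33, 0.32, 0.36 and 0.24 and overlapping sets. Dhcr7, the terminal reductase of 1 of the branches to cholesterol, had 16.2 and 13.2 TPM against 14.7 and 9.54 TPM, a log2 fold change of −0.28, the lowest of the 27.

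No gene of the control and transport group passed by limma, and 1 had an unadjusted p under 0.05. Insig1, which retains SCAP and is itself a well-known SREBP2 target, had 21.8 and 22.8 TPM in control and 37.6 and 39.9 TPM in HFD (0.77, limma adjusted p = 0.262), without overlap. Its paralog Insig2 was level over all cells, with 9.11, 9.41, 9.36 and 9.19 TPM. Within cycle states it was not level: both HFD means lay below both control means in low cells and above them in S-high cells. Neither difference passed. Srebf2 had 38.8, 25.5, 63.1 and 29.0 TPM, highest in HFD 1, and the diets overlapped. Scap had 20.2 and 20.7 TPM against 33.4 and 21.5 TPM, and Stard4, a cytosolic sterol carrier, had 45.7, 26.9, 61.7 and 38.2 TPM. The protease genes had log2 fold changes of 0.10 for Mbtps1 and −0.14 for Mbtps2.

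In all, both HFD sets lay above both control sets in 12 of the 27 members and below them in none, against 29.5% above and 12.3% below among all genes tested. The median log2 fold change was 0.38 over the members, 0.49 over the 20 enzymes and 0.13 over all genes. The members were chosen with earlier results of these data known, so they are not an unselected list. An unadjusted p under 0.05 was found for 10 members and for 1294 of all genes. Scale matters for these values: with Rn45s left out of the total the median was 0.20 for the members and −0.05 for all genes, and none of the members passed (9 had an unadjusted p under 0.05 by limma), with log2 fold changes of 1.27 (limma adjusted p = 0.525) for Sqle and 1.33 (limma adjusted p = 0.673) for Sc4mol. With median-ratio scaling none passed either, 10 had an unadjusted p under 0.05 by limma, and the adjusted p of Sqle was 0.0722. The count of 2 became 0 without control 1, 5 without control 2, 1 without HFD 1, which was Fdps, and 3 without HFD 2. The 2 calls also depended on the filter, since none passed by limma with 19088 genes tested and no filter, where the same number, 10, had an unadjusted p under 0.05. How many of all genes passed under each alternative is not given, so the counts do not show a shift particular to the members.

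The share of cycling cells and the markers of enterocytes and of secretory cells moved with the diet. With the 3 cycle states weighted equally in each set, Sqle had a log2 fold change of 1.44 (limma adjusted p = 0.0373) and Sc4mol of 1.35 (limma adjusted p = 0.0828). At least 3 Paneth or goblet markers were present in 8 and 6 control cells and in 20 and 18 HFD cells, and the summed level of the Paneth markers was 102 and 57.0 TPM in control against 710 and 213 TPM in HFD. Without those cells Sqle had a log2 fold change of 1.35 (limma adjusted p = 0.0460) and passed, Sc4mol one of 1.32 (limma adjusted p = 0.0841) and did not, and Fdps one of 1.31 (limma adjusted p = 0.0413) and passed. At least 3 enterocyte markers at 10 TPM or more were present in 62 and 67 control cells and in 81 and 81 HFD cells. In the 31, 24, 10 and 11 cells that held fewer, the log2 fold change was 0.04 (SE 0.60) for Sqle and 1.23 (SE 0.55) for Sc4mol, the member median was −0.03, no member passed by limma and 1 had an unadjusted p under 0.05. Of those 31, 24, 10 and 11 cells, 58.1%, 66.7%, 70% and 63.6% were low cells, against 52.7%, 48.4%, 34.1% and 42.4% of all passing cells. Their median number of genes was 6633, 5996.5, 5959.5 and 5691. Leaving out only the 5 cells with 3 or more markers of mature enterocytes gave 1.47 for Sqle and 1.56 for Sc4mol, and both passed. The part of enterocyte and secretory transcripts in the diet difference was not tested beyond these values.

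**Figure D2:**
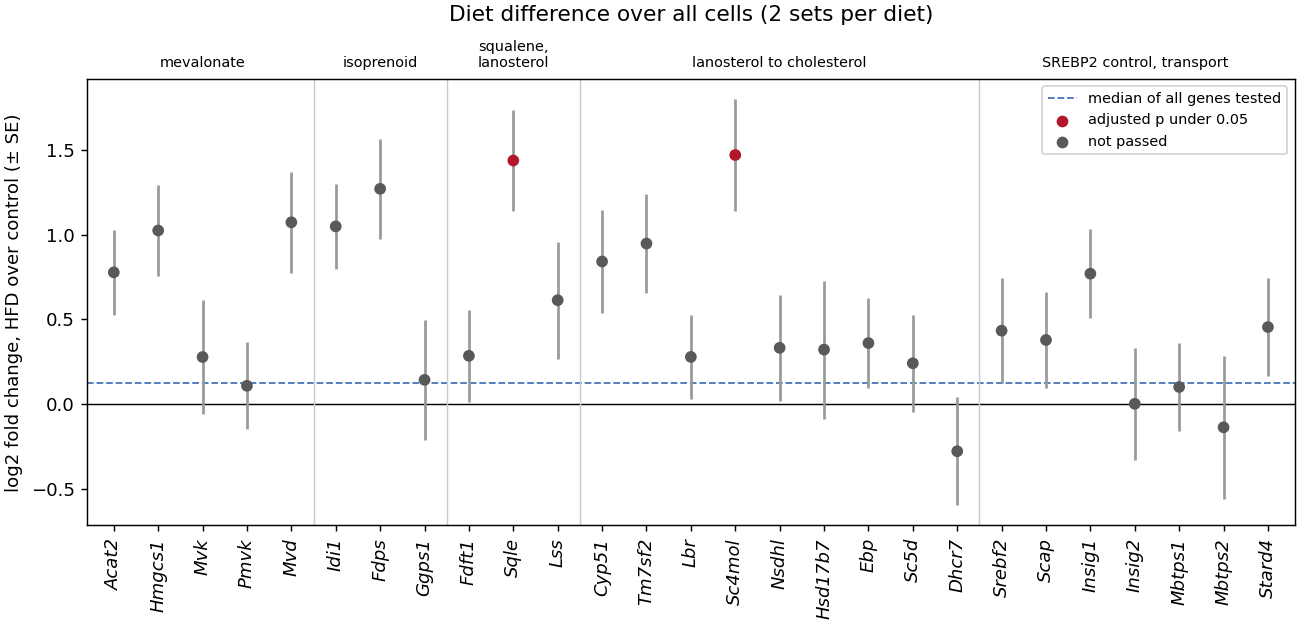
Log2 fold change of HFD over control (points, with SE bars) for the 27 genes over all passing cells, 2 sets per diet; red points passed at an adjusted p under 0.05, and the dashed line is the median of all genes tested, 0.13. Sqle (1.44) and Sc4mol (1.47) passed, Fdps (1.27) missed narrowly, and Dhcr7 (−0.28) and Mbtps2 (−0.14) lie below 0.

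Within a single cycle state, the enzymes again had positive median differences, and no member passed in any state. The states were not matched between the diets. In G2/M-high cells the mean S score was 3.88 and 3.48 in control and 4.30 and 4.51 in HFD, against the cut of 3.52. The part of this in the diet differences was not tested. The median log2 fold change of the members was 0.42 in low cells, 0.52 in S-high cells and 0.54 in G2/M-high cells, against 0.10, 0.17 and 0.15 over all genes. Over the 20 enzymes it was 0.51, 0.52 and 0.91. A set held 18 to 49 cells of a state, and few genes of any kind passed: 0.0432% were called higher in low cells, 0.0173% in S-high cells and 0.0171% in G2/M-high cells. At an unadjusted p under 0.05 by limma there were 6, 7 and 11 members, against 873, 816 and 883 of all genes.

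Both HFD sets lay above both control sets for 10 of the 27 members in low cells (23.4% of all genes did), 11 in S-high cells (26.4%) and 17 in G2/M-high cells (25.5%). The sets lay the other way for 3, 4 and 2 members, against 14.4%, 11.5% and 12.1% of all genes. These were Fdft1, Sc5d and Insig2 in low cells, Fdft1, Hsd17b7, Dhcr7 and Mbtps2 in S-high cells, and Dhcr7 and Mbtps1 in G2/M-high cells. Idi1, Sqle, Cyp51 and Tm7sf2 were in the group above in all 3 states. The share of all genes above in all 3 states was not computed. In S-high cells Cyp51 had 8.87 and 19.2 TPM in control and 21.5 and 21.5 TPM in HFD. That difference was 0.67, and 0.15 without control 1. In G2/M-high cells Sqle had 9.80 and 18.0 TPM in control and 45.5 and 47.8 TPM in HFD, a log2 fold change of 1.74 (SE 0.36, limma adjusted p = 0.311). In low cells it had 5.55 and 9.47 TPM against 19.0 and 13.8 TPM (1.06, SE 0.46), and in S-high cells 12.6 and 3.45 TPM against 26.9 and 16.7 TPM (1.52, SE 0.58). The S-high value of control 2 rests on 1 of 18 cells with Sqle at 1 TPM or more, which supplied 98.5% of the sum, and the difference was 0.71 without control 2 and 2.32 without control 1. Hmgcs1 differed most in G2/M-high cells, with 26.5 and 33.1 TPM against 84.2 and 71.9 TPM (1.36, SE 0.29, limma adjusted p = 0.326), while in low cells its sets, at 16.6, 31.4, 29.6 and 36.1 TPM, overlapped.

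Diet differences had opposite signs in low and G2/M-high cells for 8 of the 27 members. The share over all genes was not computed, so the count is a description and not a result about the members. In low and G2/M-high cells the differences were −0.52 and 0.57 for Mvk, 0.42 and −0.20 for Ggps1, 0.16 and −0.59 for Dhcr7 and 0.30 and −0.29 for Mbtps1. The other members with opposite signs were Pmvk, Mbtps2, Sc5d and Fdft1. The last pair had the lowest p-values in the test of this difference. Sc5d had 22.7 and 28.0 TPM in control and 12.6 and 22.6 TPM in HFD in low cells, and 10.5 and 10.1 TPM against 24.6 and 39.3 TPM in G2/M-high cells. Fdft1 had 25.6 and 24.8 TPM against 18.3 and 21.4 TPM in low cells, and 32.5 and 15.5 TPM against 42.7 and 64.7 TPM in G2/M-high cells. The difference between states in the diet effect was 2.05 (SE 0.37) for Sc5d and 1.52 (SE 0.49) for Fdft1 on the log2 scale, with limma adjusted p-values of 0.818 and 0.900. In this test of the state by diet interaction 0% of 11656 genes passed for G2/M-high against low cells, and 0% for S-high against low cells. At an unadjusted p under 0.05 by limma there were 2 members, these 2, and 640 genes in the first contrast, and no members and 671 genes in the second. A diet effect that differs between states was therefore not detectable for any member.

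**Figure D3:**
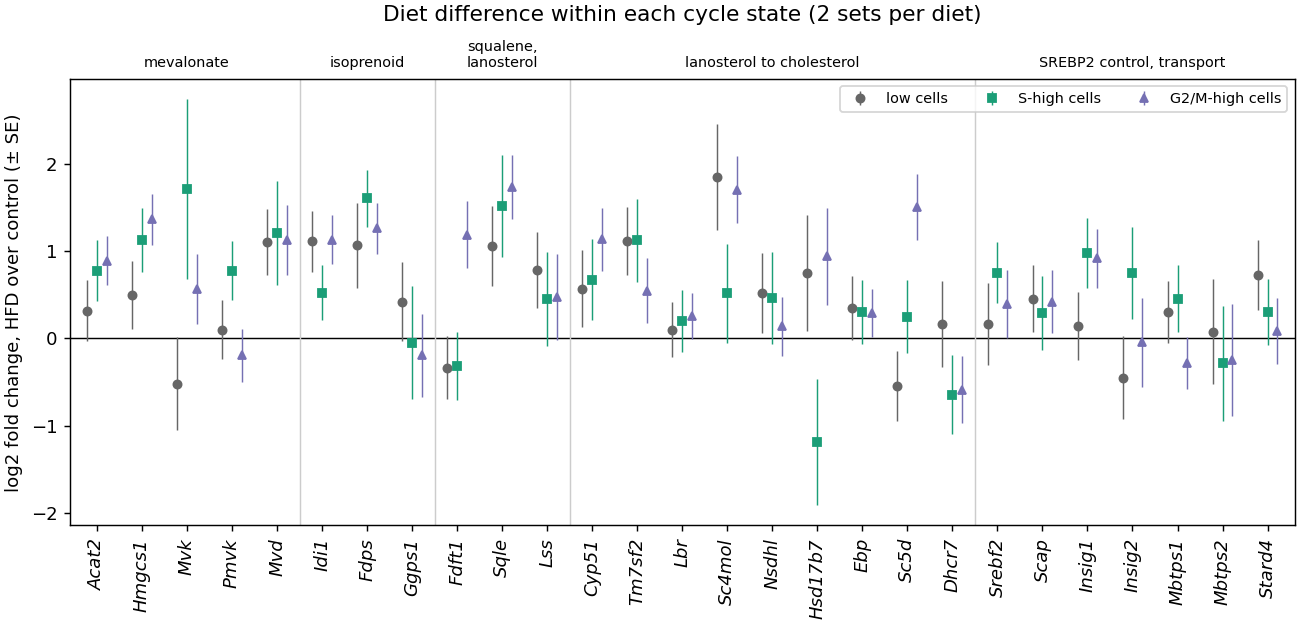
Log2 fold change of HFD over control (points, with SE bars) for the 27 genes within low, S-high and G2/M-high cells, 2 sets per diet. Sqle is above 0 in all 3 states (1.06, 1.52 and 1.74), Sc5d is at 1.50 in G2/M-high cells, and no point passed at an adjusted p under 0.05.

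The comparison of cycle states asks which of the genes moved with cell division inside the sets. In G2/M-high cells 6 of the 27 members were higher than in low cells and none was lower: Lbr, Idi1, Fdps, Insig1, Stard4 and Hmgcs1. Hmgcs1 belongs to the mevalonate segment, Idi1 and Fdps to the isoprenoid segment, Lbr to the segment from lanosterol to cholesterol, and Insig1 and Stard4 to sterol sensing and transport. Lbr has its second role at the nuclear envelope, which is taken apart and rebuilt in mitosis. In S-high cells only Idi1 and Lbr rose. States were compared by limma within sets, 12 values in all. Among all 11656 genes 7.1% were called higher in G2/M-high cells and 4.44% in S-high cells, and 2.69% and 1.01% were called lower. Lgr5, the stem cell marker used for the sort, was lower in G2/M-high cells in all 4 sets, at 202, 155, 190 and 174 TPM in low cells against 117, 79.1, 84.2 and 93.9 TPM (−0.95, SE 0.11, limma adjusted p = 6.14e-05). Its part in the member differences was not tested.

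Lbr gave the clearest difference. It had 41.7, 43.6, 42.3 and 49.5 TPM in low cells of control 1, control 2, HFD 1 and HFD 2, 47.5, 95.1, 70.7 and 84.7 TPM in S-high cells and 110.6, 123.9, 143.8 and 135.7 TPM in G2/M-high cells. The G2/M-high values lay above all the others, with a log2 fold change over low cells of 1.51 (SE 0.16, limma adjusted p = 1.87e-05). The S-high difference was 0.69 (SE 0.16, limma adjusted p = 0.0217). Every G2/M-high cell had Lbr at 1 TPM or more, against 77.9% of low cells. Lbr is often listed among G2/M genes and was left out of the score that defined the states.

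Idi1 had 16.1, 17.8, 35.3 and 40.3 TPM in low cells, 37.9, 42.6, 57.2 and 59.2 TPM in S-high cells and 38.2, 38.1, 77.2 and 92.5 TPM in G2/M-high cells. It was higher in both cycling states than in low cells of the same set in all 4 sets, by 0.91 (SE 0.18, limma adjusted p = 0.00803) in S-high and 1.13 (SE 0.18, limma adjusted p = 0.000607) in G2/M-high cells. Low cells of the HFD sets had about the level of cycling cells of the control sets.

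Fdps had 15.7, 64.1, 62.0 and 74.3 TPM in low cells and 51.5, 78.0, 139.3 and 168.6 TPM in G2/M-high cells (log2 fold change 1.07, SE 0.24, limma adjusted p = 0.0106). Its low cells in control 1 stood apart from those of the other sets. In S-high cells it had 24.5, 29.7, 97.2 and 72.5 TPM, a difference of 0.03 from low cells that did not pass. Hmgcs1 rose from 16.6, 31.4, 29.6 and 36.1 TPM in low cells to 26.5, 33.1, 84.2 and 71.9 TPM in G2/M-high cells (0.79, SE 0.23, limma adjusted p = 0.0456), with a small step in control 2. Insig1 rose from 14.2, 19.9, 20.2 and 17.3 TPM to 41.2, 22.9, 55.1 and 62.9 TPM (1.22, SE 0.28, limma adjusted p = 0.0112), again least in control 2. Stard4 rose from 33.9, 14.9, 36.9 and 39.0 TPM to 71.1, 36.7, 74.8 and 39.2 TPM (0.83, SE 0.23, limma adjusted p = 0.0394), with almost no step in HFD 2.

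Sqle and Sc4mol, the genes that rose with HFD, were higher in G2/M-high than low cells in all 4 sets and did not pass: the log2 fold change was 1.13 (SE 0.36, limma adjusted p = 0.0622) for Sqle and 1.03 (SE 0.46, limma adjusted p = 0.210) for Sc4mol. In all, 12 of the 27 members were higher in G2/M-high cells in all 4 sets, against 17.1% of all genes, and Mvd and Ggps1 were lower in all 4, against 12.3%. For S-high cells it was 6 members, against 13.9% of all genes, and Nsdhl and Mbtps1 were lower in all 4, against 9.96%. The member median was 0.44 in G2/M-high and 0.08 in S-high cells, against 0.02 and 0.01 over all genes. Srebf2 had a log2 fold change of 0.40 (SE 0.21) in G2/M-high cells and did not pass, and Scap, Insig2, Mbtps1 and Mbtps2 lay between −0.14 and −0.02. Pmvk, Lss, Tm7sf2 and Sc5d were also near 0 or below it, at −0.27, −0.07, 0.05 and −0.19.

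**Figure D4:**
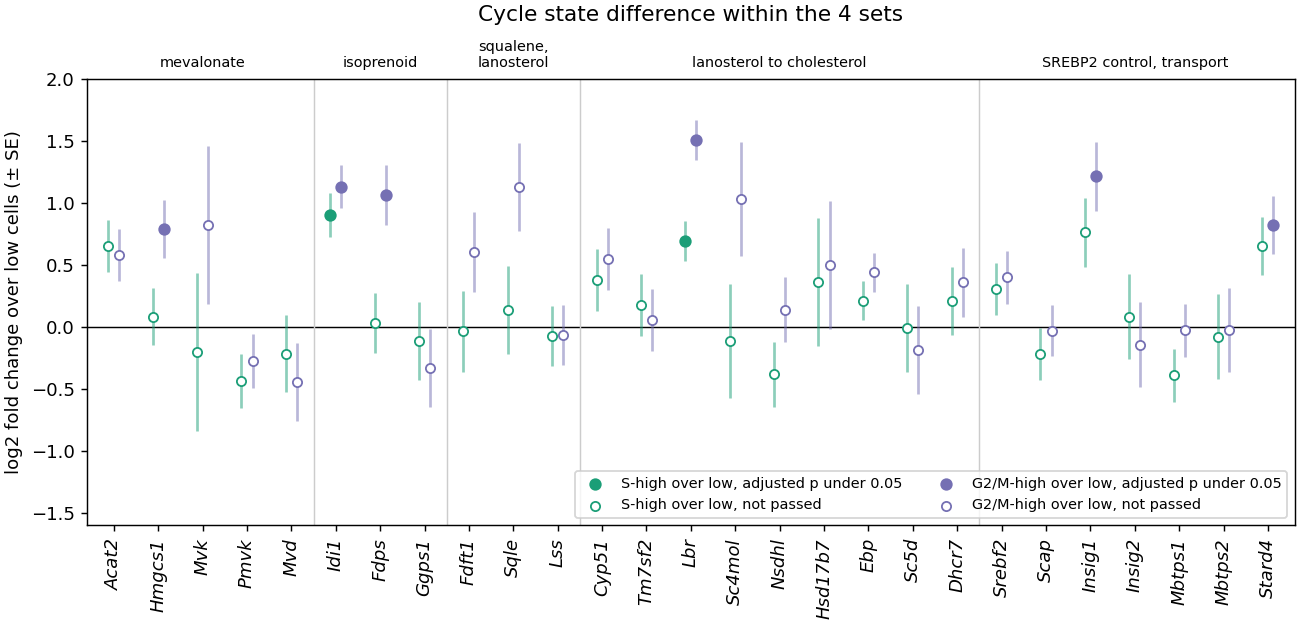
Log2 fold change over low cells (points, with SE bars) for S-high and G2/M-high cells, from a comparison within the 4 sets; filled points passed at an adjusted p under 0.05. In G2/M-high cells Lbr (1.51), Insig1 (1.22), Idi1 (1.13), Fdps (1.07), Stard4 (0.83) and Hmgcs1 (0.79) passed, and in S-high cells Idi1 (0.91) and Lbr (0.69).

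Cycling cells also had more genes in all: the median was 5942 genes in low, 6819 in S-high and 7216 in G2/M-high cells, and the part of this in the member differences was not tested. The median number of enzymes at 1 TPM or more was 8, 11 and 13 of 20, and that of the control and transport genes 4, 5 and 5 of 7. The count of 6 in G2/M-high cells became 3 without control 1, 7 without control 2, 2 without HFD 1 and 3 without HFD 2. Idi1 and Lbr passed in each of these, as they did by limma without a trend and with no filter on low genes. Hmgcs1 and Stard4 no longer passed without the cells holding 3 Paneth or goblet markers (limma adjusted p = 0.103 and 0.0985), nor with median-ratio scaling. For S-high cells the count of 2 became 1 without control 1, HFD 1 or HFD 2 and 0 without control 2. It was 0 with states divided at the median score. How many of all genes passed under each of these settings is not given. The counts therefore do not show a shift particular to the members.

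The pathway beyond the members was described by 4 further lists. Of 24 tested genes of sterol uptake, efflux, storage and related steps, 1 rose and 5 fell in G2/M-high cells, where 7.1% of all genes were called higher and 2.69% lower. The gene that rose was Tmem97, a sterol-responsive membrane protein, which went from 98.1, 140, 143 and 213 TPM in low cells to 178, 167, 268 and 224 TPM (0.52, SE 0.13, limma adjusted p = 0.0230). Its step was small in HFD 2. Among those that fell were Soat1, which esterifies cholesterol for storage (−0.65, SE 0.11, limma adjusted p = 0.00102), Abcg5 (−1.24) and Abcg8 (−1.18), which together export sterols, and Cyp27a1 (−1.12), a sterol hydroxylase. Fads2 (−0.41), also counted in the 5, is a fatty acid desaturase that the list held besides the sterol genes. Soat1 went from 298, 276, 261 and 228 TPM in low cells to 180, 154, 177 and 163 TPM. Abcg5 and Abcg8 overlap on opposite strands, so reads from the stretch they share cannot be told apart without strand. In S-high cells Soat1 (−0.40) and Abcg8 (−1.29) fell. Of 16 tested genes of SREBP transport and of protein turnover in the endoplasmic reticulum none passed in either state (1 and 0 with an unadjusted p under 0.05 by limma in G2/M-high and S-high cells), of 17 of the non-sterol isoprenoid branch Fntb rose in S-high cells (1.01), and of 15 of fatty acid synthesis Elovl1 (0.59) and Slc25a1 (0.56) rose in S-high and Elovl1 (0.63) in G2/M-high cells.

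By diet, 1 gene of these lists passed over all cells: Scarb1, the scavenger receptor that takes up cholesterol from high-density lipoprotein, had 4.81 and 3.58 TPM in control and 17.4 and 17.7 TPM in HFD (1.84, SE 0.34, limma adjusted p = 0.00656). The HFD sets were high and did not overlap with control. Npc1l1 (0.04), Abca1 (−0.60), Srebf1 (0.36), Fasn (−0.10) and Soat1 (−0.16) did not pass.

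**Figure D5:**
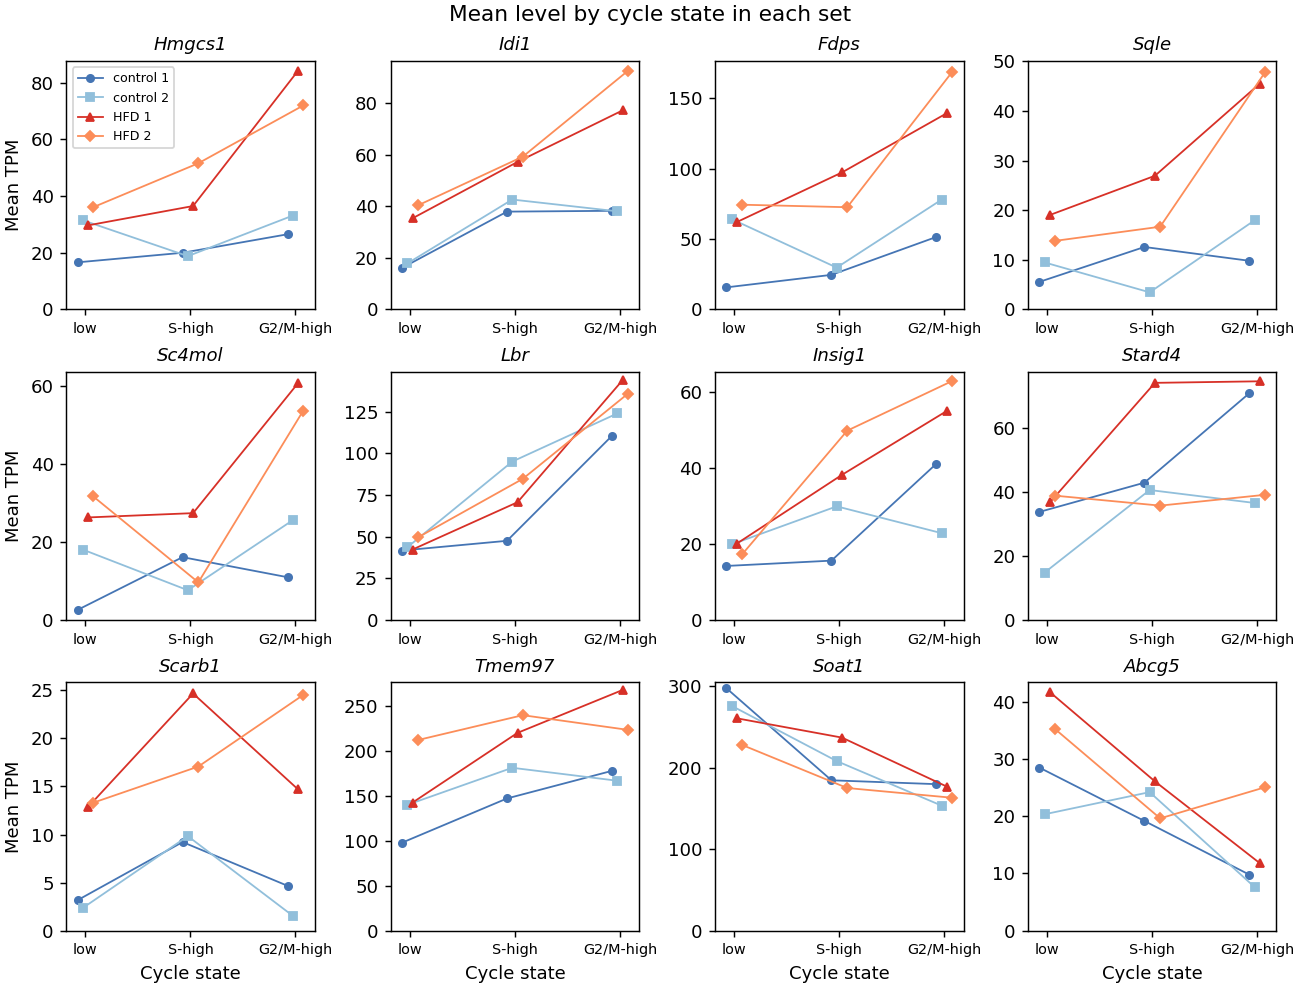
Mean TPM in low, S-high and G2/M-high cells of each set (points, joined within a set) for 8 members and for Scarb1, Tmem97, Soat1 and Abcg5, on linear axes from 0. Lbr reaches 110.6 to 143.8 TPM in G2/M-high cells against 41.7 to 49.5 TPM in low cells, and Soat1 falls to between 154 and 180 TPM.

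From cell to cell inside a set, most members were weakly correlated with each other, as a description over 91 to 93 cells per set of log2(TPM + 1), averaged over the 4 sets. Across the 351 pairs of members the median correlation was 0.08, and 51 pairs were over 0.2. Pairs of other genes were not computed, so these correlations are not shown to be particular to the members. Among low cells alone the median was 0.06 and 41 pairs were over 0.2, of which 33 were among the 51. The strongest pair was Idi1 with Insig1 (mean r of 0.37, from 0.29 to 0.44 over the sets), then Hmgcs1 with Sqle, Cyp51 and Sc4mol (0.36 each). In low cells the Idi1 and Insig1 pair had a mean r of 0.37 and Hmgcs1 with Sqle 0.38, whereas Fdps with Sqle had 0.10 against 0.33 over all cells and Fdps with Sc4mol 0.08 against 0.29. Correlation with the mean of the other enzymes was highest for Sqle (0.51), Hmgcs1 (0.49), Fdps (0.48), Idi1 (0.48) and Sc4mol (0.47). It was 0.33 for Srebf2, 0.43 for Insig1, 0.04 for Ggps1 and −0.01 for Scap. All genes of a cell were read from the same library, and cells differed in the number of genes detected. The median correlation of members with the number of genes per cell was 0.17.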

How the data were processed

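Single Lgr5+ cells were profiled by Smart-seq2, and the submitters' processing notes name Bowtie2, RSEM and the mouse build mm10; their versions and settings were not given in the labels used here. The values are TPM as deposited by the authors, 1 value per gene and cell, and TPM keeps no read depth, so no floor from reads can be given. Cells with at least 2000 genes above 0 were kept (367 of 375), 4 rows whose symbols repeat were left out, and the passing cells of each of the 4 sets, or of each cycle state in a set, were averaged. Means were compared as log2(mean TPM + 1) with limma 3.58.1 in R 4.3.3, with a mean-variance trend (none for the interaction), two-sided, for genes whose mean reached 1 TPM, with Benjamini-Hochberg adjustment over all genes tested and a threshold of 0.05. A fold change on this scale understates the change of low genes. Cycle scores were means of log2(TPM + 1), divided at Otsu's threshold. The fits were checked on simulated data. Gene positions and shared sequence came from GENCODE on GRCm38. Named were all members, the genes of 4 related lists past the threshold, further genes of those lists by name, and 4 check genes; some of them are not reported here. The members and lists were chosen with earlier results of these data known. Set numbers are shared between the diets, but the labels do not tie them to a litter, batch or day, so the sets were not treated as pairs.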

Additional observations from a re-analysis of the deposited data

How the results depend on the processing

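The number of members called by diet over all cells was 2, and it was 1 with a pseudocount of 10 or with cycle states weighted equally, 4 among genes of at least 5 TPM, and 0 with no filter on low genes, without a trend, with Rn45s left out, with median-ratio scaling, without cells holding 3 enterocyte markers, and in cells within the interquartile range of gene numbers (in this order 10, 10, 9, 10, 1 and 10 members had an unadjusted p under 0.05 by limma). Leaving out 1 set gave 0 to 5, where the lone set of a diet is assumed to vary like the other diet's sets. With the set number as a replicate block it was 9 (Acat2, Hmgcs1, Mvd, Idi1, Fdps, Sqle, Tm7sf2, Sc4mol and Insig1), and 1 each in low and S-high cells. Across 11665 genes, the difference between control 1 and control 2 correlated by 0.23 with that between HFD 1 and HFD 2. Over the members the correlation was 0.16. With only 2 pairs, this is a hint from the data and not from the design. For S-high against low cells the count of 2 became 1 with no filter or no trend, 6 with cell-wise logs, 0 with states divided at the median, and 0 to 1 without 1 set. For G2/M-high against low cells the count of 6 became 2 with no filter or no trend, 17 with cell-wise logs, and 2 to 7 without 1 set. The cause of these shifts was not tested. For these counts, here and above, the number of all genes called under the same setting is not given. They therefore do not show a shift particular to the members. Directions reversed as follows for differences that were larger than their SE or were called. By diet over all cells, leaving out 1 set put Nsdhl between −0.0094 (without HFD 1) and 0.68 and Srebf2 between −0.11 (without HFD 1) and 0.98; without cells holding 3 enterocyte markers, Mvd was at −0.36, Fdft1 −0.25, Lss −1.36, Lbr −0.58, Nsdhl −0.44, Insig1 −0.44 and Stard4 −0.046. In low cells Nsdhl lay between −0.039 (without HFD 1) and 1.07 without 1 set, with Hmgcs1 at −0.42, Sqle at −0.30 and Cyp51 at −0.29 with states divided at the median. In S-high cells Mvk lay between −0.30 (without control 2) and 3.71 (without control 1). With cell-wise logs Pmvk (0.43), Nsdhl (0.31), Scap (0.21) and Mbtps1 (0.061) turned positive in S-high against low cells, and Pmvk (0.48), Mvd (0.28) and Lss (0.74) in G2/M-high against low cells, where Mvd was also at 0.11 with the median. In the interactions Sc4mol lay between −3.03 (without control 2) and 0.36 (without control 1), Mvk between −0.15 (without control 2) and 4.60 (without control 1), and Tm7sf2 at 0.31 with the median. Differences within their SE also changed sign under at least 1 alternative, for 8 members by diet over all cells, 8 in low, 9 in S-high and 8 in G2/M-high cells, 15 and 8 in S-high and G2/M-high against low cells, and 15 and 12 in the 2 interactions. Examples are, by diet in S-high cells, Lbr (0.20, −0.29 without control 1), Lss (0.45, −0.27 without control 2), Sc4mol (0.52, −0.19 without HFD 1), Stard4 (0.30, −0.22 without HFD 1) and Ggps1 (−0.05, 0.87 without HFD 1). In G2/M-high cells they are Lss (0.47, −0.28 without control 2), Srebf2 (0.39, −0.17 without HFD 1), Stard4 (0.08, −0.38 without control 2) and Mbtps2 (−0.25, 0.49 without control 1). In the S-high interaction they are Sqle (0.46, −0.69), Fdps (0.54, −0.31) and Mvd (0.10, −0.73) without control 2 and Acat2 (0.46, −0.24) without HFD 1. Leaving out cells with enterocyte markers was run over all cells only, since a state then held as few as 1 cell in a set. That test on mature enterocyte markers and the one on gene numbers were chosen after seeing the data. TPM gives no depth, so the precision of single-cell values is unknown.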
